A study of Mus musculus with 8 samples.

Results

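Genes that mark position along the long axis of the hippocampus were examined in hippocampal RNA from female mice. The 7 genes were chosen by their symbols: Lct and Spink8 as genes enriched at the dorsal end, Trhr, Dlk1 and Gpc3 as genes enriched at the ventral end, and Nr2f1 and Nr2f2 as factors that pattern the forebrain. All 7 of 7 symbols were found among the 29442 genes of the count table, and all 7 were among the 27612 genes with at least 1 count that entered the tests.

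The RNA came from 8 female C57BL/6 J mice of 6 to 8 weeks. In 4 of them dehydroepiandrosterone (DHEA, a precursor of androgens, 30 mg/kg/day) was injected, and in 4 its vehicle, sesame oil, in both cases under the skin for 21 days. The tissue is labelled as hippocampus, and the methods name the ventral hippocampus. There was no dorsal or whole hippocampus to set beside it, so the levels given here show what these pieces of tissue contained and not a difference between the ends of the axis. Libraries are named by their labels, DHEA libraries 3, 4, 7 and 11 and sesame oil libraries 5, 9, 10 and 16. The study's own table of changed genes carries signs opposite to those that the labels give, so each direction below holds for the libraries as labelled.

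The hippocampus is a single folded sheet, but its ends differ. The dorsal end is known for spatial memory and the ventral end for emotional behaviour, anxiety and stress. In each of its subfields, principal neurons at the dorsal and ventral ends express partly different genes, and those genes are used to tell where along the axis a piece of tissue was cut. Because a level in a bulk sample counts the RNA of all cells together, fewer cells of a type and less RNA per cell cannot be told apart here.

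The total count per library was 35748416 to 38038361 in the DHEA libraries and 31483772 to 35418297 in the sesame oil libraries. Every DHEA library was therefore deeper than every sesame oil library. DHEA libraries 3 and 4 stood apart from the rest, with scores of 21.8 and 35.6 on the first principal component (33.4% of the variance of 16813 genes) against -12.7 to -3.6 in the other 6. The share of reads on 13 mitochondrial genes was 7.29% to 9.34% in the DHEA libraries and 6.37% to 7.23% in the sesame oil libraries. The correlation, across genes, of a gene's deviation from its mean log2 level with the GC content of its transcript was -0.113 to -0.00445 in the DHEA libraries and 0.0558 to 0.136 in the sesame oil libraries, so depth, mitochondrial share and this trend all differed between the groups without overlap. Because DHEA libraries 3 and 4 stood apart, the results that rest on them are also given without them. No 2 libraries of a group were as alike as sampling noise would make them, so each counts as 1 replicate. The p-values of edgeR rest on the spread between these mice, with that of each gene pooled in part with other genes. Those of the exact permutation test rest on the values of the gene alone.

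To describe the tissue, 7 genes that mark hippocampal subfields were examined, and all 7 were expressed. Among them, Pcp4, a marker of CA2 and the dentate gyrus, had a mean of 185 FPKM (counts divided by the library total and by gene length, a scale on which genes can be compared). Neurod6, a transcription factor of pyramidal neurons, had 105 FPKM, C1ql2, a secreted protein of dentate granule cells, had 25.2 FPKM and Prox1, the factor that keeps granule cell identity, had 15.2 FPKM. None of the 7 had an adjusted p under 0.05 between the groups. Without another tissue to compare, their expression does not tell hippocampus from other brain tissue, nor its ventral from its dorsal end.

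On the same FPKM scale, the axis genes fell into 3 tiers. Nr2f1 (15.3 ± 1.17 FPKM, mean ± SD, n = 8) and Spink8 (13.6 ± 2.31 FPKM) formed the upper tier. Nr2f1 was the higher of this pair in 5 of 8 libraries, and their ranges overlapped. Nr2f2 (6.23 ± 1.13 FPKM) and Lct (5.77 ± 0.961 FPKM) came next, and again the first was higher in only 5 of 8 libraries. Dlk1 (2.49 ± 0.55 FPKM), Gpc3 (2.27 ± 0.335 FPKM) and Trhr (2.02 ± 0.403 FPKM) made up the lowest tier, in which all neighbouring ranges overlapped. The tiers themselves did not overlap: Spink8 was above Nr2f2 in 8 of 8 libraries, and Lct was above Dlk1 in 8 of 8 libraries. Both dorsal genes thus had higher levels per length than the 3 ventral genes in these samples. The mean FPKM of Trhr stood at percentile 63.3 of all genes in the table and that of Nr2f1 at percentile 87.6, so all 7 were well above the median of the expressed genes, 0.529 FPKM.

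Lct encodes lactase, the enzyme of the intestinal brush border that splits milk sugar, and in the hippocampus its RNA marks dorsal granule cells of the dentate gyrus. Its normalized level was 36.8, 38.5, 25.9 and 35.5 CPM (counts scaled by TMM to a library total of 1000000) in DHEA libraries 3, 4, 7 and 11. In sesame oil libraries 5, 9, 10 and 16 it was 33.3, 43.1, 42.1 and 29.7 CPM. DHEA library 7 was the lowest of all 8, and sesame oil libraries 9 and 10 were the highest, so the groups overlapped. The means were 34.2 ± 5.64 and 37.1 ± 6.59 CPM (SD, n = 4 each). Lct did not pass edgeR's quasi-likelihood test (log2 fold change -0.12, 95% interval -0.38 to 0.14, adjusted p = 0.707). The value depended on single libraries: it was -0.01 without DHEA library 7 and -0.22 without sesame oil library 16.

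Spink8 encodes a Kazal-type serine protease inhibitor and marks pyramidal neurons of dorsal CA1. In the fit to all 8 libraries it had the largest log2 fold change, in size, of the 7 genes. Without DHEA libraries 3 and 4, Nr2f2 (-0.29), Lct (-0.28) and Trhr (-0.20) had larger ones in size. The level of Spink8 was 12.7, 14.2, 9.27 and 12.9 CPM in DHEA libraries 3, 4, 7 and 11 and 9.51, 9.72, 11.2 and 8.85 CPM in sesame oil libraries 5, 9, 10 and 16. Of the 4 DHEA libraries, 3 lay above every sesame oil library, while DHEA library 7 lay among them. The means were 12.3 ± 2.12 and 9.82 ± 0.984 CPM (SD, n = 4 each), a fold of 1.25. Spink8 had an unadjusted p of 0.0264 by edgeR's quasi-likelihood test (log2 fold change 0.32, SE 0.13, 95% interval 0.04 to 0.60), and an adjusted p of 0.469 over all genes. When the 8 libraries were allocated to the groups in all 70 ways, the exact permutation p was 0.114 (two-sided, with 0.0286 the smallest that 4 against 4 can give). Without DHEA libraries 3 and 4, the log2 fold change of Spink8 was 0.17 (edgeR adjusted p = 0.767), with an unadjusted p above 0.05. With the GC trend of each library removed it was 0.29 (edgeR adjusted p = 0.57).

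**Figure D1:**
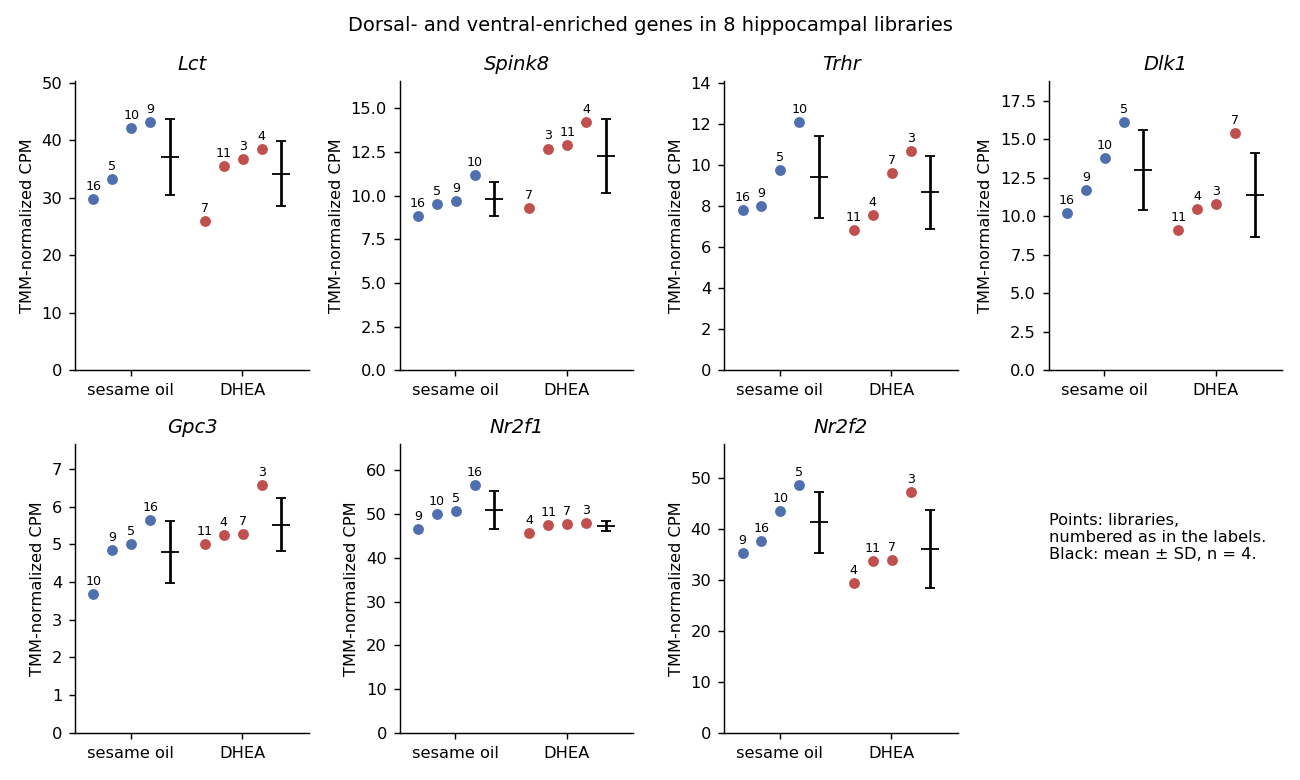
TMM-normalized CPM (vertical axes, from 0) of the 7 genes in each library, numbered as in the labels, with sesame oil in blue, DHEA in red and the mean ± SD of 4 libraries in black. The groups overlap for every gene, and for Spink8 3 DHEA libraries (12.7 to 14.2 CPM) lie above the highest sesame oil library (11.2 CPM).

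Of the ventral genes, Trhr encodes the receptor for thyrotropin-releasing hormone, which signals through Gq proteins and phospholipase C, and marks ventral granule cells. It was 10.7, 7.57, 9.63 and 6.84 CPM in DHEA libraries 3, 4, 7 and 11 and 9.78, 8.0, 12.1 and 7.84 CPM in sesame oil libraries 5, 9, 10 and 16. Each group held high and low libraries, so that the spread within a group was wider than the gap between the means of 8.69 ± 1.79 and 9.43 ± 1.99 CPM (SD, n = 4 each). The log2 fold change was -0.12 (95% interval -0.46 to 0.22, edgeR adjusted p = 0.793). This direction turned without sesame oil library 10, the library with the highest Trhr level, where the log2 fold change was 0.02.

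Dlk1 encodes a transmembrane protein of the Delta family that lacks the domain with which Notch ligands activate their receptor, and it is expressed from the paternal allele only. Its level was 10.8, 10.5, 15.4 and 9.11 CPM in DHEA libraries 3, 4, 7 and 11 and 16.1, 11.7, 13.8 and 10.2 CPM in sesame oil libraries 5, 9, 10 and 16. DHEA library 7 was the second highest of all 8, and the other 3 DHEA libraries were among the lower ones. The means were 11.4 ± 2.72 and 13.0 ± 2.59 CPM (SD, n = 4 each), with a log2 fold change of -0.18 (95% interval -0.52 to 0.15, edgeR adjusted p = 0.666). The value depended on several single libraries. It was -0.36 without DHEA library 7 (unadjusted p under 0.05, edgeR adjusted p = 0.267), -0.06 without sesame oil library 5 and -0.09 without DHEA library 11.

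Gpc3 encodes a glypican, a heparan sulfate proteoglycan held at the cell surface by a lipid anchor, which binds growth factors and morphogens. It was the gene with the fewest reads, 131 to 244 counts per library. Its level was 6.57, 5.25, 5.27 and 5.01 CPM in DHEA libraries 3, 4, 7 and 11 and 5.01, 4.86, 3.67 and 5.65 CPM in sesame oil libraries 5, 9, 10 and 16. DHEA library 3 was the highest of all and sesame oil library 10 the lowest, and the other 6 lay close together between 4.86 and 5.65 CPM. The means were 5.52 ± 0.707 and 4.8 ± 0.825 CPM (SD, n = 4 each), with a log2 fold change of 0.20 (95% interval -0.15 to 0.55, edgeR adjusted p = 0.666). Without DHEA libraries 3 and 4 it was 0.09.

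Nr2f1 and Nr2f2, also called COUP-TFI and COUP-TFII, are orphan nuclear receptors that bind DNA and set regional identity in the developing cortex and hippocampus. They are close paralogs. The longest identical run between their longest GENCODE vM21 transcripts (build GRCm38) is 59 bases, within the coding sequence of each, in the part that encodes the DNA-binding domain. It is shown because reads that fall wholly within it could be assigned to either gene:
Nr2f1, positions 1416 to 1474 of a transcript of 3207 bases: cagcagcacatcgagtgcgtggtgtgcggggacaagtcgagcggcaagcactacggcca
Nr2f2, positions 484 to 542 of a transcript of 4222 bases: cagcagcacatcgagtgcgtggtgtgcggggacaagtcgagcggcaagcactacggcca
The reads were 150 bases long, and 0 windows of 150 bases were shared by the 2 transcripts, so a full-length read spanning the run also holds bases that differ between the genes. The same search gave runs of at most 18 bases between Trhr and Trhr2 and 15 bases between Dlk1 and Dlk2.

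Nr2f1 was the steadiest of the 7 genes. It was 47.9, 45.6, 47.8 and 47.5 CPM in DHEA libraries 3, 4, 7 and 11 and 50.6, 46.5, 49.9 and 56.6 CPM in sesame oil libraries 5, 9, 10 and 16. All 4 DHEA libraries lay in a narrow band, and 3 of the 4 sesame oil libraries were above it. The means were 47.2 ± 1.09 and 50.9 ± 4.23 CPM (SD, n = 4 each), with a log2 fold change of -0.11 (95% interval -0.26 to 0.04, edgeR adjusted p = 0.645).

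Nr2f2 spread far more. It was 47.2, 29.4, 33.9 and 33.7 CPM in DHEA libraries 3, 4, 7 and 11 and 48.6, 35.3, 43.6 and 37.7 CPM in sesame oil libraries 5, 9, 10 and 16. DHEA library 3 stood with the 2 highest sesame oil libraries, and the other 3 DHEA libraries were below every sesame oil library. The means were 36.1 ± 7.69 and 41.3 ± 6.0 CPM (SD, n = 4 each), with a log2 fold change of -0.20 (95% interval -0.46 to 0.06, edgeR adjusted p = 0.643). The value depended on several single libraries. The Nr2f2 log2 fold change was -0.35 without DHEA library 3 (edgeR adjusted p = 0.388), -0.12 without DHEA library 4 and -0.11 without sesame oil library 5. Without DHEA libraries 3 and 4 it was -0.29 (edgeR adjusted p = 0.538). The unadjusted p was under 0.05 without library 3 and without libraries 3 and 4, but not without DHEA library 4 or sesame oil library 5.

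Of the 7 genes, 0 had an adjusted p under 0.05 by edgeR, where 0.0% of all 27612 genes did, and 0 by DESeq2, where 1.21% of 12623 genes with an adjusted p did. At an unadjusted p under 0.05 the count was 1 of 7 (14.3%, Spink8), beside 9.31% of all genes tested and 15.7% of the 12780 genes that, as all 7 did, averaged 100 counts or more. Spink8 was thus the 1 of 7 counted as higher in the DHEA libraries, beside 4.82% of all genes and 8.08% of those averaging 100 counts or more, and 0 of 7 were counted as lower, beside 4.49% of all genes. With a 2-fold change required as well, 0 of 7 were counted, beside 1.6% of all genes. The groups did not overlap for 0 of the 7 genes, beside 5.04% of all genes tested and 8.46% of those averaging 100 counts or more. Regardless of the test, 2 genes, Spink8 and Gpc3, lay higher and 5 lay lower in the DHEA libraries, with a median log2 fold change of -0.12 beside 0.01 over all genes. Without DHEA libraries 3 and 4 all 7 kept these directions, with log2 fold changes of -0.28 for Lct, -0.20 for Trhr, -0.09 for Dlk1 and -0.10 for Nr2f1 beside those already given. By class, 1 of the 2 dorsal genes was higher, 1 of the 3 ventral genes was higher, and both patterning factors were lower, none of which was a call at the adjusted p. No 95% interval of the 7 reached a 2-fold change in either direction, and the widest reached from -0.15 to 0.55 on the log2 scale, for Gpc3.

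**Figure D2:**
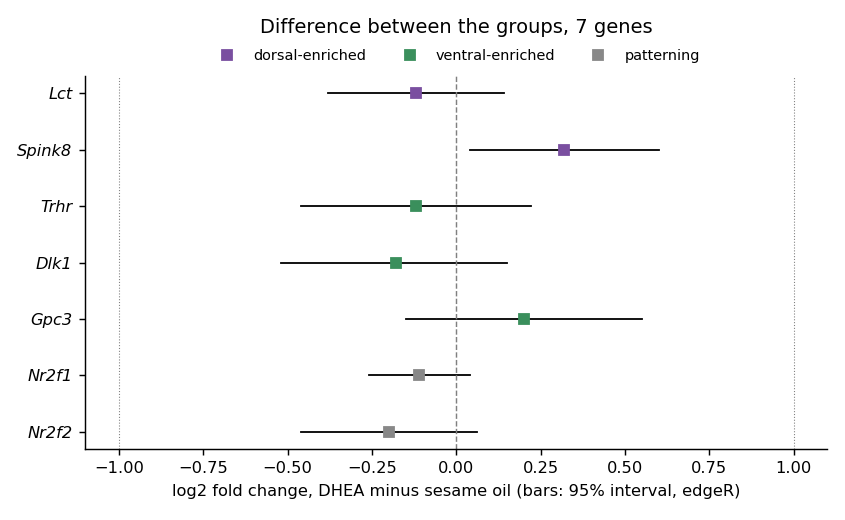
Log2 fold change (DHEA minus sesame oil, edgeR) of the 7 genes with 95% intervals, coloured by class; the dotted lines mark a 2-fold change. The interval of Spink8 (0.04 to 0.60) alone lies to one side of 0, and all intervals lie inside the dotted lines.

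Single mice differed in the levels of these genes. The ratio of the highest to the lowest library was 1.24 for Nr2f1 and reached 1.79 for Gpc3. The coefficient of variation within groups was 21.8% for Dlk1, 20.9% for Trhr, 17.8% for Nr2f2, 17.2% for Lct, 15.0% for Spink8 and 14.9% for Gpc3, against a median of 8.57% over the 12780 genes averaging 100 counts or more. These 6 genes stood between percentile 82.1 (Gpc3) and 92.8 (Dlk1) of that distribution. Nr2f1, at 6.3%, stood at percentile 28.3. Counting error is larger for genes with fewer reads, and the 7 genes were not matched on depth to the others.

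For each library, the mean log2(CPM + 0.5) of the 2 dorsal genes minus that of the 3 ventral genes described its balance along the axis. It was 1.20, 1.59, 0.72 and 1.59 in DHEA libraries 3, 4, 7 and 11 and 0.91, 1.36, 1.29 and 1.04 in sesame oil libraries 5, 9, 10 and 16. DHEA library 7 had the lowest balance and DHEA libraries 4 and 11 had the highest, so that the DHEA group (1.27, SD 0.41) spanned the whole range of the sesame oil group (1.15, SD 0.21). The difference of 0.13 was smaller than either SD, and without DHEA libraries 3 and 4 it was 0.0 (mean 1.15 in both groups). The ratio of Lct to Trhr, the dentate genes of the 2 ends, had the same mean log2 value of 1.92 in both groups, and a difference of -0.08 without DHEA libraries 3 and 4.

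The 2 dorsal genes lay in opposite directions between the groups. Spink8 minus Lct on the log2(CPM + 0.5) scale was -1.49, -1.40, -1.44 and -1.43 in DHEA libraries 3, 4, 7 and 11 and -1.76, -2.09, -1.87 and -1.69 in sesame oil libraries 5, 9, 10 and 16. The 4 DHEA libraries were nearly equal (SD 0.04) and all lay above the sesame oil libraries (SD 0.18), with a difference of 0.41 between the means. This ratio was singled out after its values were seen, so it is given without a test. How often the ratios of other gene pairs separate the groups was not counted. The 4 DHEA libraries include library 7, in which both genes were low.

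All 21 pairs of the 7 genes were correlated over the 8 libraries on the log2(CPM + 0.5) scale, to see whether genes of the same end varied together from mouse to mouse. By the exact permutation test, 0 of 21 pairs had an adjusted p under 0.05 (lowest adjusted p 0.634 for Pearson's r and 0.386 for Spearman's rho). The pair with the highest r was Trhr and Nr2f2 (r = 0.73, exact permutation p = 0.0485, adjusted p = 0.634; rho = 0.79, p = 0.0279, adjusted p = 0.386). It had r = 0.75 without the 2 libraries farthest from the median of Trhr, 0.72 after each group mean was subtracted and 0.64 without DHEA libraries 3 and 4. Trhr and Dlk1, both ventral, had r = 0.66 (exact permutation p = 0.0805, adjusted p = 0.634) and rho = 0.71 (p = 0.0576, adjusted p = 0.403), and r = 0.64 within groups. The third ventral gene, Gpc3, had a negative r with both. It was -0.27 with Trhr (exact permutation p = 0.547, adjusted p = 0.891) and -0.36 with Dlk1 (p = 0.41, adjusted p = 0.861). Without the 2 libraries farthest from the median of Trhr or of Dlk1, these were 0.49 and -0.65.

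Lct and Spink8, both dorsal, had r = 0.49 (exact permutation p = 0.224, adjusted p = 0.83) and rho = 0.57 (p = 0.151, adjusted p = 0.529) over all libraries, and r = -0.09 without the 2 libraries farthest from the median of Lct. After each group mean was subtracted, r was 0.87 (exact permutation within groups, p = 0.00694, adjusted p = 0.146) and rho was 0.71 (p = 0.0451, adjusted p = 0.352), with r = 0.55 without the 2 farthest libraries. Of the pairs that join a dorsal with a ventral gene, Spink8 and Dlk1 had the most negative r, -0.54 (exact permutation p = 0.169, adjusted p = 0.83; rho = -0.40, p = 0.327, adjusted p = 0.624), and -0.22 without the 2 libraries farthest from the median of Spink8. With 8 libraries none of these relations held after adjustment over the 21 pairs.

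**Figure D3:**
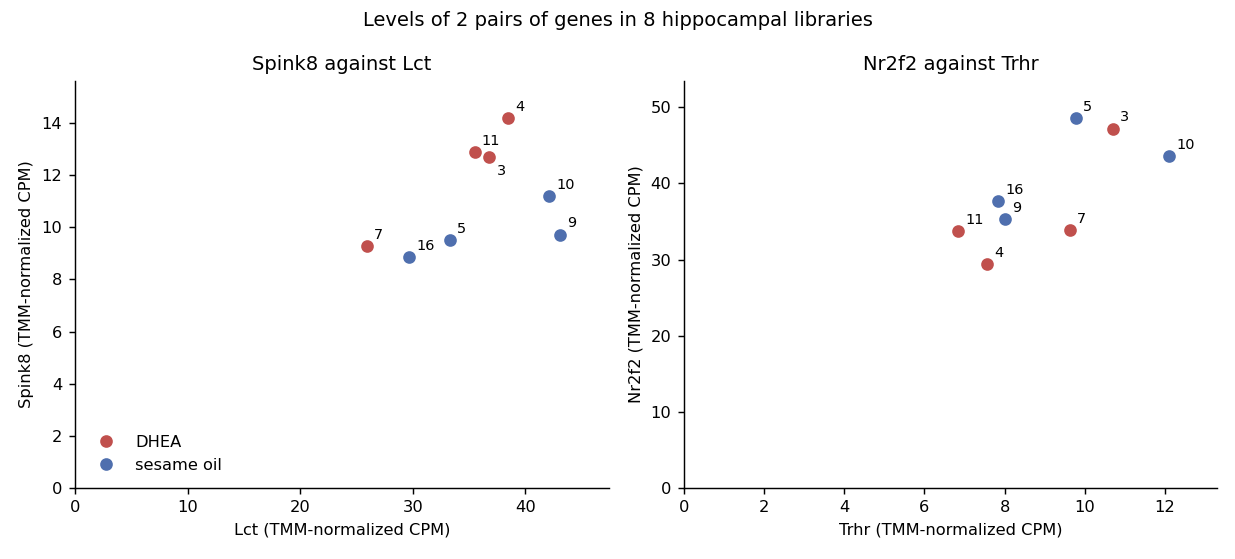
TMM-normalized CPM of Spink8 against Lct (left) and of Nr2f2 against Trhr (right), each point 1 library numbered as in the labels, with sesame oil in blue and DHEA in red. On the left, the DHEA points lie close to a line, the sesame oil points are more scattered, with library 10 (11.2 CPM of Spink8) above library 9 (9.72 CPM) at nearly equal Lct, and each DHEA point has more Spink8 per Lct than any sesame oil point; on the right, DHEA library 3 and sesame oil libraries 5 and 10 are high for both genes.

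Other genes of the axis were examined in the same way. A further 3 dorsal genes were examined, Wfs1, an endoplasmic reticulum protein of dorsal CA1, Fibcd1 and Ccn3. Their mean levels were 29.3, 18.8 and 53.1 FPKM. All 3 lay lower in the DHEA libraries (median log2 fold change -0.11), and 0 of 3 had an unadjusted p under 0.05. With DHEA libraries 3 and 4 left out, the median was -0.23, and Fibcd1 (log2 fold change -0.23, edgeR adjusted p = 0.566) and Ccn3 (-0.32, edgeR adjusted p = 0.541) had an unadjusted p under 0.05. Of 5 further ventral genes (Dcn, Htr2c, Calb2, Coch and Etv1), 4 lay higher and 1 lower (median 0.01), again with 0 of 5 at an unadjusted p under 0.05. In the fit without those libraries 3 lay higher and 2 lower (median 0.04), and Htr2c (0.56, edgeR adjusted p = 0.504) and Dcn (-0.26, edgeR adjusted p = 0.502) had an unadjusted p under 0.05, in opposite directions. Their levels ran from 3.50 FPKM for Coch to 29.8 FPKM for Dcn, a matrix proteoglycan.

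Htr2c, a serotonin receptor gene also strongly expressed by the choroid plexus, had the widest spread among them. It was 117, 38.0, 77.1 and 117 CPM in DHEA libraries 3, 4, 7 and 11 and 85.0, 45.9, 60.8 and 71.1 CPM in sesame oil libraries 5, 9, 10 and 16. The summed level of 7 choroid plexus genes was 4510, 96, 2230 and 4180 CPM and 3150, 516, 2050 and 2280 CPM in the same libraries. Both were lowest in DHEA library 4 and sesame oil library 9. The most abundant of these genes, Ttr, the thyroid hormone carrier of the cerebrospinal fluid, ranged from 60.4 to 4020 CPM, and 0 of the 7 was at 0. All 7 lay higher in the DHEA libraries (median log2 fold change 0.44), with 0 of 7 at an unadjusted p under 0.05. Without DHEA libraries 3 and 4 all 7 again lay higher (median 0.66), 2 of them at an unadjusted p under 0.05 and 0 at an adjusted p under 0.05. The part of the plexus in the level of Htr2c was not tested. Of the 7 axis genes, Nr2f1 was likewise lowest in DHEA library 4 and next to lowest in sesame oil library 9, while Lct was highest in sesame oil library 9 and Spink8 in DHEA library 4.

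Around Trhr, no gene of thyrotropin-releasing hormone signalling passed the test. Of 7 genes (the hormone Trh, the second receptor Trhr2, the degrading enzyme Trhde, the G proteins Gnaq and Gna11, the phospholipase Plcb1 and the calcium channel Itpr1), 6 lay higher and 1 lower, with a median log2 fold change of 0.05 and 0 of 7 at an unadjusted p under 0.05. Trh itself and Trhr2 were low (0.308 and 0.129 FPKM), while the enzyme Trhde had 6.41 FPKM and the downstream genes 12.8 to 56.9 FPKM. Trhr is also known from the anterior pituitary, and Dlk1 as well. The summed level of 7 detected pituitary genes was 2.34, 0.645, 1.33 and 1.78 CPM in DHEA libraries 3, 4, 7 and 11 and 3.02, 5.54, 25.3 and 2.16 CPM in sesame oil libraries 5, 9, 10 and 16. Sesame oil library 10, with the highest sum, also had the highest Trhr level, but sesame oil library 9, next in the sum, was only the fifth in Trhr (8.0 CPM), and DHEA library 3, next in Trhr (10.7 CPM), had a sum of 2.34 CPM. Of the pituitary genes, Prl (prolactin, the most abundant) and Gh (growth hormone) had an unadjusted p under 0.05, with edgeR adjusted p of 0.0647 and 0.0818. Gh had 0 to 3 counts in the DHEA libraries, so its fitted fold change is not given. Tshb, the hormone subunit of thyrotrophs, had 0 to 4 counts, Pou1f1, a factor of the Gh, Prl and Tshb lineage, was at 0 in 7 libraries, and Fshb, a subunit of gonadotrophs, was at 0 in all 8. Lhb, the other gonadotroph subunit, was detected in all 8 libraries (23 to 85 counts in the DHEA libraries, log2 fold change -0.01) and made up most of the DHEA sums, 2.29 of 2.34 CPM in library 3 and all of the 0.645 CPM in library 4. The part of pituitary RNA in the level of Trhr was not tested.

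The neighbours of Dlk1 in the genome did not follow it in every library. Dlk1 lies in an imprinted cluster with genes for noncoding RNAs that are expressed from the maternal allele, among them Meg3, Rian and Mirg. Of 9 genes of this cluster and of Notch signalling, 9 lay lower in the DHEA libraries, with a median log2 fold change of -0.31 and 1 of 9, Mirg, at an unadjusted p under 0.05. The split was, without DHEA libraries 3 and 4, 3 higher and 6 lower, with a median of -0.03 and 0 of 9 at an unadjusted p under 0.05. Meg3, the most abundant of them, was 1020, 1120, 4300 and 3910 CPM in DHEA libraries 3, 4, 7 and 11 and 3720, 4060, 3990 and 3620 CPM in sesame oil libraries 5, 9, 10 and 16. Mirg was 4.85, 5.16, 11.4 and 13.2 CPM in the DHEA libraries and 15.0, 14.1, 12.5 and 12.7 CPM in the sesame oil libraries, in the same order. Both RNAs were low in DHEA libraries 3 and 4 alone, the 2 libraries that stand apart, whereas Dlk1 in these (10.8 and 10.5 CPM) lay within the range of the other 6. Meg3 had a log2 fold change of -0.57 (edgeR adjusted p = 0.591), which turned to 0.09 without libraries 3 and 4 (edgeR adjusted p = 0.748). The log2 fold change of Mirg was -0.65 (edgeR adjusted p = 0.402), and without libraries 3 and 4 it was -0.15, with an unadjusted p above 0.05. The receptors Notch1 and Notch2 and the target gene Hes1 had log2 fold changes of -0.06, -0.08 and -0.03.

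**Figure D4:**
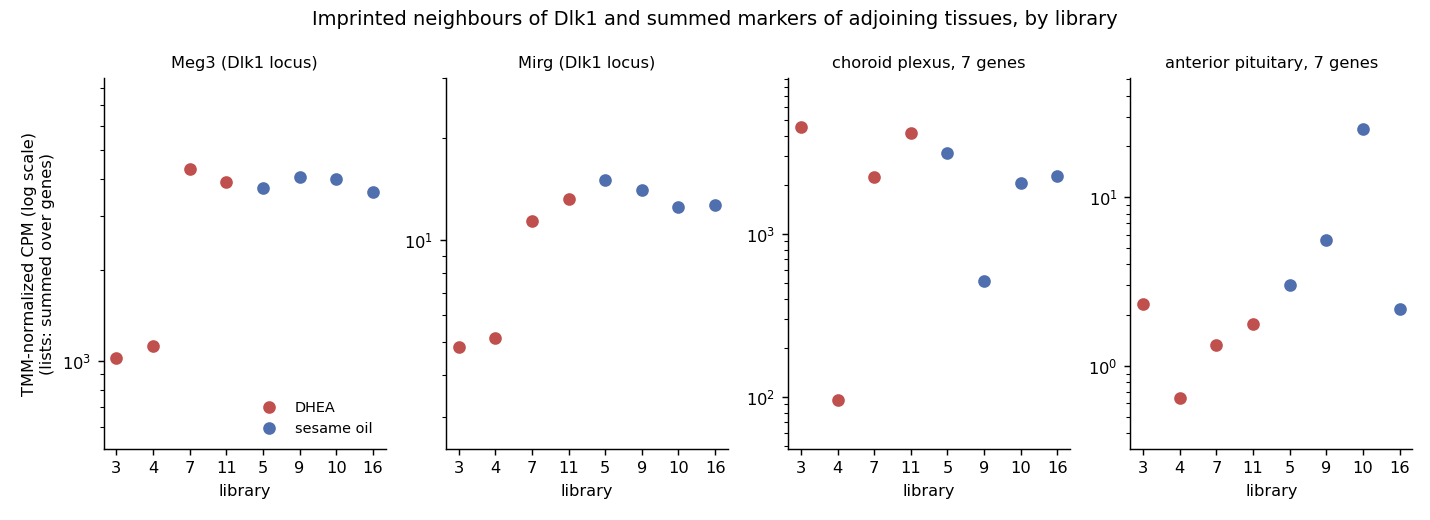
TMM-normalized CPM on log scales, by library, of Meg3 and Mirg, neighbours of Dlk1, and of the summed choroid plexus and anterior pituitary genes, with DHEA in red and sesame oil in blue. Meg3 (1020 and 1120 CPM) and Mirg (4.85 and 5.16 CPM) are low in DHEA libraries 3 and 4, the choroid plexus sum is lowest in DHEA library 4 (96 CPM), and the pituitary sum is highest in sesame oil library 10 (25.3 CPM).

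Beside Gpc3, a list of 6 genes was examined, the glypicans Gpc1, Gpc2, Gpc4, Gpc5 and Gpc6 and the secreted enzyme Notum. Of these, 4 lay higher and 2 lower (median log2 fold change 0.05), and Gpc5 alone had an unadjusted p under 0.05 (log2 fold change 0.20, edgeR adjusted p = 0.421). Gpc5 was 38.9 to 46.6 CPM in the DHEA libraries and 36.5 to 40.3 CPM in the sesame oil libraries. Its unadjusted p was under 0.05 in 5 of the 8 fits that left out 1 library. It was also under 0.05 without DHEA libraries 3 and 4 (log2 fold change 0.22, edgeR adjusted p = 0.499). Gpc1, the main neuronal glypican, had the highest level of the family, 11.3 FPKM. Gpc3 is also made by fibroblasts. The summed level of 6 meningeal fibroblast genes was 483, 186, 200 and 354 CPM in DHEA libraries 3, 4, 7 and 11 and 295, 219, 265 and 310 CPM in sesame oil libraries 5, 9, 10 and 16. DHEA library 3 was the highest for both the sum and Gpc3, but DHEA library 11, next in the sum, was the sixth in Gpc3 (5.01 CPM), and sesame oil library 10, the lowest in Gpc3, had a middling sum. Igf2, the most abundant of these genes, made up most of the sum in every library. It was 123 to 389 CPM in the DHEA libraries, with 389 CPM in library 3, and 142 to 237 CPM in the sesame oil libraries. The order of the libraries in the sum is thus largely that of Igf2. In Col1a1, Col1a2, Lum and Islr, sesame oil library 10 was next to lowest, above DHEA library 7 only, but not in Slc6a13. The part of fibroblast RNA in the level of Gpc3 was not tested, and 0 of the 6 fibroblast genes had an unadjusted p under 0.05.

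Nr2f2 is also expressed in interneurons of the caudal ganglionic eminence and in venous endothelium. The 7 interneuron genes, of which Reln was the most abundant by CPM, summed to 165, 136, 159 and 144 CPM in DHEA libraries 3, 4, 7 and 11 and to 171, 135, 130 and 171 CPM in sesame oil libraries 5, 9, 10 and 16. Libraries 3 and 5, with the highest Nr2f2, were among the highest here, but library 10, the third in Nr2f2, was the lowest. Of these genes, 0 of 7 had an unadjusted p under 0.05. The 5 endothelial genes summed to 167 to 218 CPM in the DHEA libraries and to 188 to 207 CPM in the sesame oil libraries. Of these, 3 lay higher and 2, Flt1 (log2 fold change -0.06) and Vwf (-0.14), lay lower in the DHEA libraries (median 0.03). With DHEA libraries 3 and 4 left out, 1 lay higher and 4 lower (median -0.13). Pecam1, an adhesion molecule of endothelial junctions, had an unadjusted p under 0.05 (log2 fold change 0.30, edgeR adjusted p = 0.343), and without DHEA libraries 3 and 4 it was 0.25, with an unadjusted p above 0.05 (edgeR adjusted p = 0.647). The part of either cell type in the level of Nr2f2 was not tested.

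Among 9 other genes of forebrain patterning, 2 lay higher and 7 lower (median log2 fold change -0.04). Emx2, which shapes the hippocampus and its medial border, had a log2 fold change of -0.18 (edgeR adjusted p = 0.579). Zbtb20, a zinc finger repressor needed for the identity of hippocampal pyramidal neurons, had the highest CPM of the list.

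Markers of tissue next to the hippocampus were also examined. In the neocortex list of 4 genes, 2 lay higher and 2 lower in the DHEA libraries. Without DHEA libraries 3 and 4 the split was 3 higher and 1 lower. The log2 fold change over all libraries was 0.06 for Rorb, 0.03 for Scnn1a and -0.08 for Cux2. Only 1 gene of this list, Fezf2, a factor of deep-layer neurons, had an unadjusted p under 0.05 (log2 fold change -0.39, edgeR adjusted p = 0.245). Its levels were 25.3 to 34.1 CPM in the DHEA libraries and 34.0 to 46.6 CPM in the sesame oil libraries. In the thalamus list of 5 genes, 1, Gbx2, did so, at 0 to 6 counts in the DHEA libraries and 3 to 28 counts in the sesame oil libraries. At so few counts its fitted fold change is not given. Its unadjusted p was under 0.05 in 7 of the 8 fits that left out 1 library, and not without DHEA libraries 3 and 4. Gbx2 lay lower in the DHEA libraries, while the other 4 genes lay higher, with log2 fold changes of 0.22 for Tcf7l2, 0.22 for Prkcd, 0.20 for Slc17a6 and 0.03 for Rgs16, none of them at an unadjusted p under 0.05. Slc17a6, the most abundant of the thalamus genes by CPM, ranged from 18.5 to 33.6 CPM. The 3 hypothalamic genes summed to 0.431 to 1.93 CPM. Over all 15 lists, 8 of 90 genes tested (8.89%) had an unadjusted p under 0.05, and 0 had an adjusted p under 0.05. The unadjusted share was 9.31% over all genes and 15.7% over those averaging 100 counts or more. For the fit without DHEA libraries 3 and 4, the share over genes averaging 100 counts or more was not computed. The share of 7.89% is over all genes, so it is not matched in depth to the list genes. When DHEA libraries 3 and 4 were left out, 17 of 90 list genes (18.9%, 4 higher and 13 lower) had an unadjusted p under 0.05, beside 7.89% of all genes, and 0 had an adjusted p under 0.05. In that fit these were 2 of the 3 further dorsal genes (both lower), 2 of the 5 further ventral genes (1 higher, 1 lower), 3 of the 7 subfield genes (all lower), 2 of the 7 choroid plexus genes (both higher) and 2 of the 7 pituitary genes (both lower). The glypican list had 1 (higher), and the forebrain patterning, fibroblast, interneuron, endothelial and neocortex lists had 1 each (all lower). The thyrotropin-releasing hormone list was then split into 3 higher and 4 lower.

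For each of the 7 genes, the 2 genes with the most similar profile over the 8 libraries were found among 16812 genes averaging 10 counts or more, by Pearson's r of log2(CPM + 0.5), as a description. Lct was nearest to C130036L24Rik (r = 0.942) and Fam163b (r = 0.942). Spink8 was nearest to Fech (r = 0.986), the last enzyme of heme synthesis, and St6gal1 (r = 0.981), a sialyltransferase. Trhr was nearest to Gabrb1 (r = 0.942), a GABA-A receptor subunit, and Tmem255a (r = 0.942), and Dlk1 to Wdr74 (r = 0.936) and Ndc1 (r = 0.926). Gpc3 was nearest to the glutamate receptor gene Grm8 (r = 0.97) and Shisa5 (r = 0.949). Nr2f1 was nearest to Gabbr2 (r = 0.962), a GABA-B receptor subunit, and Zfp940 (r = 0.961), and Nr2f2 to Uba1 (r = 0.963) and Akap1 (r = 0.949). None of the 7 genes was among the 2 nearest of another. With 8 points and so many genes, high values of r arise for any gene, and the libraries share depth and composition.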

How the data were processed

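Polyadenylated RNA of 8 hippocampal samples was sequenced as paired-end reads of 150 bases. The counts per gene were deposited without normalization and were made with HTSeq after alignment with HISAT2, and the submitters' processing notes name fastp and the build GRCm39. Versions and the annotation are not given in the sources used here. The authors also deposited FPKM, which are those counts divided by the library total and by gene length (within 0.1% for 25234 of 25234 genes), and hold no further measurement.

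Counts of the 27612 genes with at least 1 count were normalized by TMM and tested with the quasi-likelihood test of edgeR 4.0.16 (R 4.3.3, prior count 0.125), with Benjamini-Hochberg adjustment over all of them. Single genes were also tested by exact permutation over 70 allocations, and pairs over 40320 pairings, or 576 within groups (scipy 1.17.1). DESeq2 1.42.0, limma 3.58.1 (log2 of FPKM), RLE scaling, other filters, a prior count of 1, robust moderation, thinning and removal of the trend with GC content (lowess span 0.3) were alternatives. Without libraries 3 and 4 was added after the data were seen. Scripts were tested on simulated data.

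The 7 genes and the 15 lists (91 other genes) were chosen with earlier results of these data known. Named genes were the 7, the most abundant gene of a list, list genes with an unadjusted p under 0.05 and the 2 most similar profiles; other list genes were named after their values were seen. A further gene of the lists is not reported here. Sequences were read from GENCODE vM21 transcripts. No coordinates are given, since that annotation is of another build. At these depths 3 counts are below 0.1 CPM.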

Additional observations from a re-analysis of the deposited data

Results flagged for a closer look

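In groups of 4 libraries, a single library far from the other 3 was looked for in the 7 genes, in the dorsal minus ventral balance and in the ratio of Lct to Trhr. One case was found. Gpc3 in DHEA library 3, at 6.57 CPM beside 5.01 to 5.27 CPM in the other 3 DHEA libraries, lay apart by 0.832 of the range of its group, just above Dixon's critical value for 4 libraries. In 18 groups examined, 0.9 such cases arise by chance. Without DHEA libraries 3 and 4 the log2 fold change of Gpc3 was 0.09 in place of 0.20, and its edgeR adjusted p was 0.895 in place of 0.666.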

How the results depend on the processing

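Under every alternative run for them, 0 of the 7 genes had an adjusted p under 0.05. For the 21 pairs, 4 alternatives were run (a pseudocount of 0.1, group means subtracted, RLE scaling and leaving out DHEA libraries 3 and 4), with 0 of 21 in each. The count of the 7 genes at an unadjusted p under 0.05, 1 by edgeR, was 0 by limma-trend on log2(FPKM + 1) and 0 to 2 when 1 library was left out. Spink8 was the gene counted in 3 of the 8 fits without 1 library. Without DHEA library 7 both Spink8 and Dlk1 were counted, without DHEA library 3 the gene counted was Nr2f2, and without DHEA libraries 3 and 4 it was again Nr2f2. Over all genes, the count at an adjusted p under 0.05, 0 by edgeR, was 153 by DESeq2, 4 with robust moderation, 1 without DHEA libraries 3 and 4 and 0 to 93 when 1 library was left out (93 without DHEA library 7). The causes were not tested. One direction turned: the log2 fold change of Trhr, -0.12, was 0.02 without sesame oil library 10. When 1 library was left out, the log2 fold change ranged from -0.22 to -0.01 for Lct, 0.24 to 0.44 for Spink8, -0.24 to 0.02 for Trhr, -0.36 to -0.06 for Dlk1, 0.09 to 0.28 for Gpc3, -0.15 to -0.06 for Nr2f1 and -0.35 to -0.11 for Nr2f2. With the trend of each library with GC content removed, Spink8 was 0.29 and kept an unadjusted p under 0.05, while Nr2f1 was -0.06 in place of -0.11 and Trhr -0.20 in place of -0.12. The dorsal minus ventral difference, 0.13, was 0.0 without DHEA libraries 3 and 4. No paired analysis was possible because the labels give the libraries of the 2 groups different numbers. Of the 7 genes, Gpc3 had the fewest reads, 131 to 244 counts per library. With every library thinned to the smallest total, Gpc3 was 0.19 and Trhr -0.09.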
